A study of Rattus norvegicus with 34 samples.

Results

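The livers of male Brown Norway rats of 12 months were compared with those of 4 months, in animals labelled as untreated controls. The 6 arrays, 3 rats at each age, were chosen by strain, age and control label and are 6 of the 34 arrays of a study of genes for drug and chemical metabolism in ageing male rats. Total liver RNA was hybridised to Affymetrix Rat 230 2.0 arrays, 1 rat an array. The 18 Brown Norway arrays also cover controls of 24 months and, at 4, 12 and 24 months, rats dosed by gavage with toluene (1.0 g per kg body weight, carried in corn oil) and killed 4 hours later, with 3 rats in each group. The labels call the controls untreated and mention no corn oil for them, and the remaining 16 arrays are from the F344 strain and were not used. The 6 toluene-dosed rats of 4 and 12 months serve here as the same age contrast in other animals.

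A rat of 4 months is a young adult and one of 12 months is in middle age. The male rat liver carries a sex-specific set of drug-metabolising enzymes, with the cytochromes P450 Cyp2c11, Cyp2c13, Cyp3a2 and Cyp2a2 high in males, that is held by the pulsed secretion of growth hormone from the pituitary. Besides hepatocytes, the liver holds resident macrophages (Kupffer cells), sinusoidal endothelial cells, stellate cells and passing leukocytes, whose RNA is part of every whole-liver sample. In such samples more cells of a type and more RNA per cell cannot be told apart.

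The 6 arrays were alike in overall signal, with medians of 35.6 to 37.3 and between 52.8% and 54.2% of measured probe sets above a floor of 32, the value to which all lower signals were set. The ratio of 3' to 5' probe set signal for Gapdh, which reports on how intact the RNA was, ran from 0.833 to 0.892 at 4 months and 0.774 to 0.864 at 12 months. The same ratio for beta-actin was higher, at 2.47 to 3.31 at 4 months and 1.99 to 2.81 at 12 months. Whether the beta-actin ratio bears on the comparison was not tested. The 8 measured hepatocyte markers summed to 41322 to 42609 at 4 months and 41930 to 42521 at 12 months, so the arrays matched their tissue label.

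One control array stood furthest from its group. On replicate 2 of the 4-month controls, 411 genes lay at least 2-fold from the mean of the other 2 rats, 293 of them above it, against 157 and 100 genes on replicates 1 and 3. The genes above included proteins of inflammation and stress, named here after their values were seen. Lcn2, an iron-binding protein of the acute-phase response, read 3030 on that array and 45.3 and 43.1 on the other 4-month arrays. The neutrophil-attracting chemokine Cxcl1 read 2055 there, 23.1 and 43.5 on its group mates and 400.5, 26.8 and 13.1 at 12 months. A2m, an acute-phase protease inhibitor of the rat, read 1046 on it and 42.6 and 52.6 beside it. The same array held the highest signals of the 6 for the transcription factors Stat3, at 1308, Myc, at 231, and Junb, at 297, for the growth arrest gene Gadd45g, at 463, and for the haem-degrading enzyme Hmox1, at 980. It also held the lowest Cyp7a1, the rate-limiting enzyme of bile acid synthesis, at 41.4. Its 7 measured neutrophil and monocyte markers summed to 3476, against 109 to 371 on the other 5 arrays, mostly through Lcn2, while 4 of the 7 (Ly6g6c, Csf3r, Mmp8 and Ccr2) were at or below the floor on all 6. Some results that depend on this rat are given with and without it, and the others with it only. Among the 12-month controls, replicate 3 lay at least 2-fold from the mean of its group mates for 211 genes. The same count was 80 and 23 on replicates 1 and 2. The gene lists were not recounted without replicate 3 of 12 months.

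**Figure D1:**
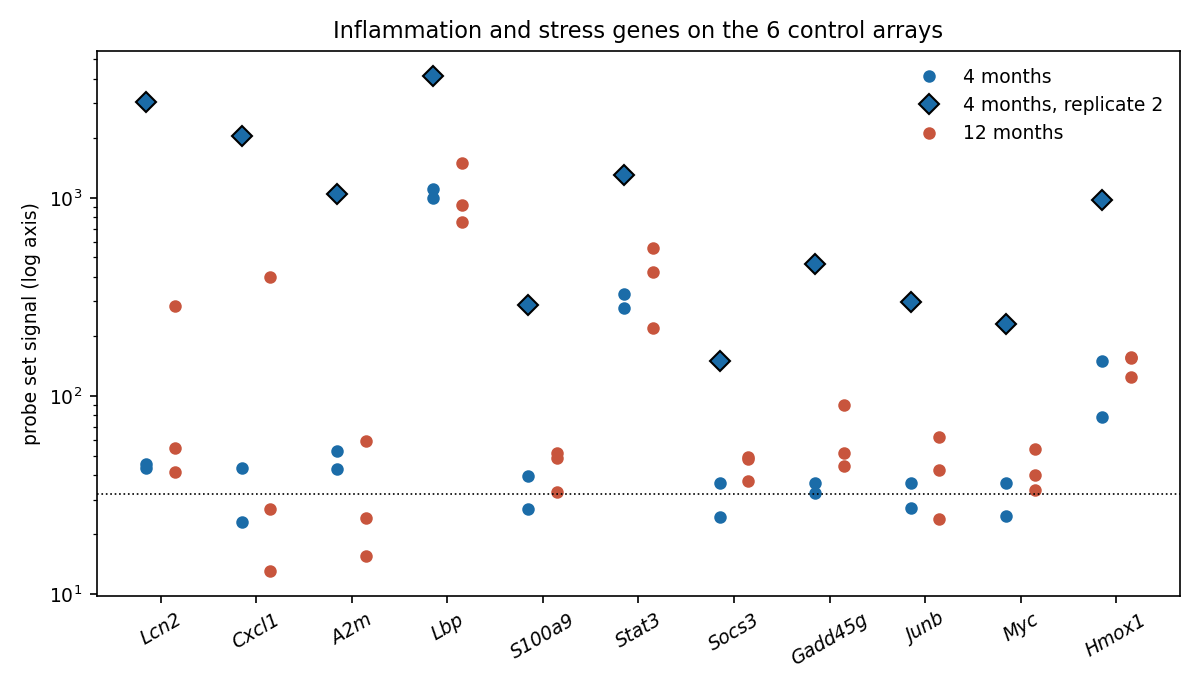
Signals (log axis) of 11 inflammation and stress genes on the 6 control arrays, with 1 point a rat; diamonds mark replicate 2 of the 4-month group and the dotted line marks the floor of 32. That array reads highest for all 11 genes, with Lcn2 at 3030 against 41.2 to 283 on the other 5.

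No gene met the threshold of an adjusted p under 0.05 between the ages. Of 8586 genes tested, limma called 0 (0%), and the smallest adjusted p was 0.172. At an unadjusted p under 0.05 there were 334 genes (3.89%), below the share of 0.05 expected if no gene differed. Of these, 169 were higher at 12 months (1.97%) and 165 lower (1.92%). Leaving out 1 control rat moved the count of 334 to between 176, when the third rat of 12 months was dropped, and 780, when the first rat of 4 months was. It was 707 on dropping the first rat of 12 months, and array quality weights gave 668. The 3 rats of 12 months all read above the 3 of 4 months for 357 genes (4.16%) and all below for 281 (3.27%). A difference of 2-fold or more was measured for 33 genes, 20 higher and 13 lower at 12 months. The median 95% interval reached 0.38 log2 units to either side, or 1.30-fold, and for 7809 genes (91.0%) the whole interval lay within 2-fold of no difference. An exact permutation test of any single gene over 3 against 3 rats cannot go below p = 0.1.

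The genes furthest from the null were few and of mixed function. The 20 with the smallest p were 12 higher and 8 lower at 12 months, and their values are descriptions, since none passed the test. Dnase2b, an acid DNA-cutting enzyme related to the lysosomal DNase II, read 110, 137 and 100 at 4 months and 608, 477 and 579 at 12 months. The groups lay far apart and each was tight, and this was the largest difference of the 20, at 4.82-fold (log2 fold change 2.27, SE 0.43, 95% interval 1.35 to 3.18, limma adjusted p = 0.254). Ncald, a calcium sensor best known from neurons, went the other way, with 158, 216 and 115 at 4 months and 52.2, 50.3 and 48.5 at 12 months. Its groups did not overlap and differed by 3.13-fold (log2 fold change -1.65, SE 0.29, limma adjusted p = 0.209).

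Socs2, which growth hormone induces and which damps signalling from its receptor, read 64.5, 128.3 and 62.0 at 4 months. All 3 rats of 12 months were below the floor, at 29.9, 19.8 and 29.8, so the 2.50-fold lower level is a bound (log2 fold change of floored signals -1.32, SE 0.31, limma adjusted p = 0.566). Without replicate 2 of 4 months, the highest of that group, it was -0.98. The smallest p of all belonged to LOC100909739, a locus with no name in the annotation, at 54.6, 43.3 and 52.5 against 23.8, 22.9 and 33.9. The dim signals and the floor leave it a log2 fold change of -0.61 (SE 0.10, limma adjusted p = 0.172), and 2 of its 12-month rats lay below the floor.

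Tmem150c, a membrane protein, read 47.5, 63.6 and 64.3 at 4 months and 127, 155 and 103 at 12 months, a 2.19-fold difference between groups that did not overlap. Ten1, part of a complex that guards telomere ends, read 80.9, 125 and 52.5 against 189, 151 and 232. Ackr2, a receptor that takes up inflammatory chemokines without signalling, was below the floor in all 4-month rats and read 40.1, 57.4 and 119 at 12 months, at least 2.03-fold higher. These 3 genes had log2 fold changes of 1.13, 1.21 and 1.02. Unc5cl, at 85.4, 76.5 and 98.4 against 156, 120 and 155, Tstd1, a relative of the sulfur-transferring rhodanese, at 417, 319 and 333 against 490, 509 and 495, Coro7, of the coronin family, and the helicase gene Dhx32 were higher by 0.72, 0.49, 0.39 and 0.47. The others of the 20 that were lower at 12 months were Parn, which trims poly(A) tails, Utp6, of ribosomal RNA processing, Coq5, of ubiquinone synthesis, Tnrc18 and the Ras regulator Rasal2. Their log2 fold changes lay between -0.68 and -0.54, and their groups did not overlap, except for Coq5, where 1 rat of 12 months, at 55.2, read above 1 of 4 months, at 53.3.

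Il7 and Ugt2b10 met the threshold when 1 rat was left out, and Il7 was picked for that. Il7, a growth factor of lymphocytes, read 43.5 and 55.5 in the 4-month rats 1 and 3 but 217 in rat 2, against 245, 185 and 118 at 12 months. With all 6 rats its log2 fold change was 1.12 (SE 0.42, limma adjusted p = 0.962), and without replicate 2 it was 1.83 (SE 0.24, adjusted p = 0.0131). LOC100909739 also passed in that fit, at -0.72 (adjusted p = 0.0173), so that 2 genes were called and 210 had an unadjusted p under 0.05. Ugt2b10, an enzyme that adds glucuronic acid to lipids and drugs, read 262, 395 and 367 at 4 months and 19.5, 15.7 and 424 at 12 months. It read between 369 and 907 on all 12 other Brown Norway arrays, so the 2 low rats of 12 months stood alone. Its log2 fold change was -2.15 with all rats (SE 0.71, limma adjusted p = 0.962) and -3.39 without replicate 3 of 12 months, where it was the 1 gene called (adjusted p = 0.00203).

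**Figure D2:**
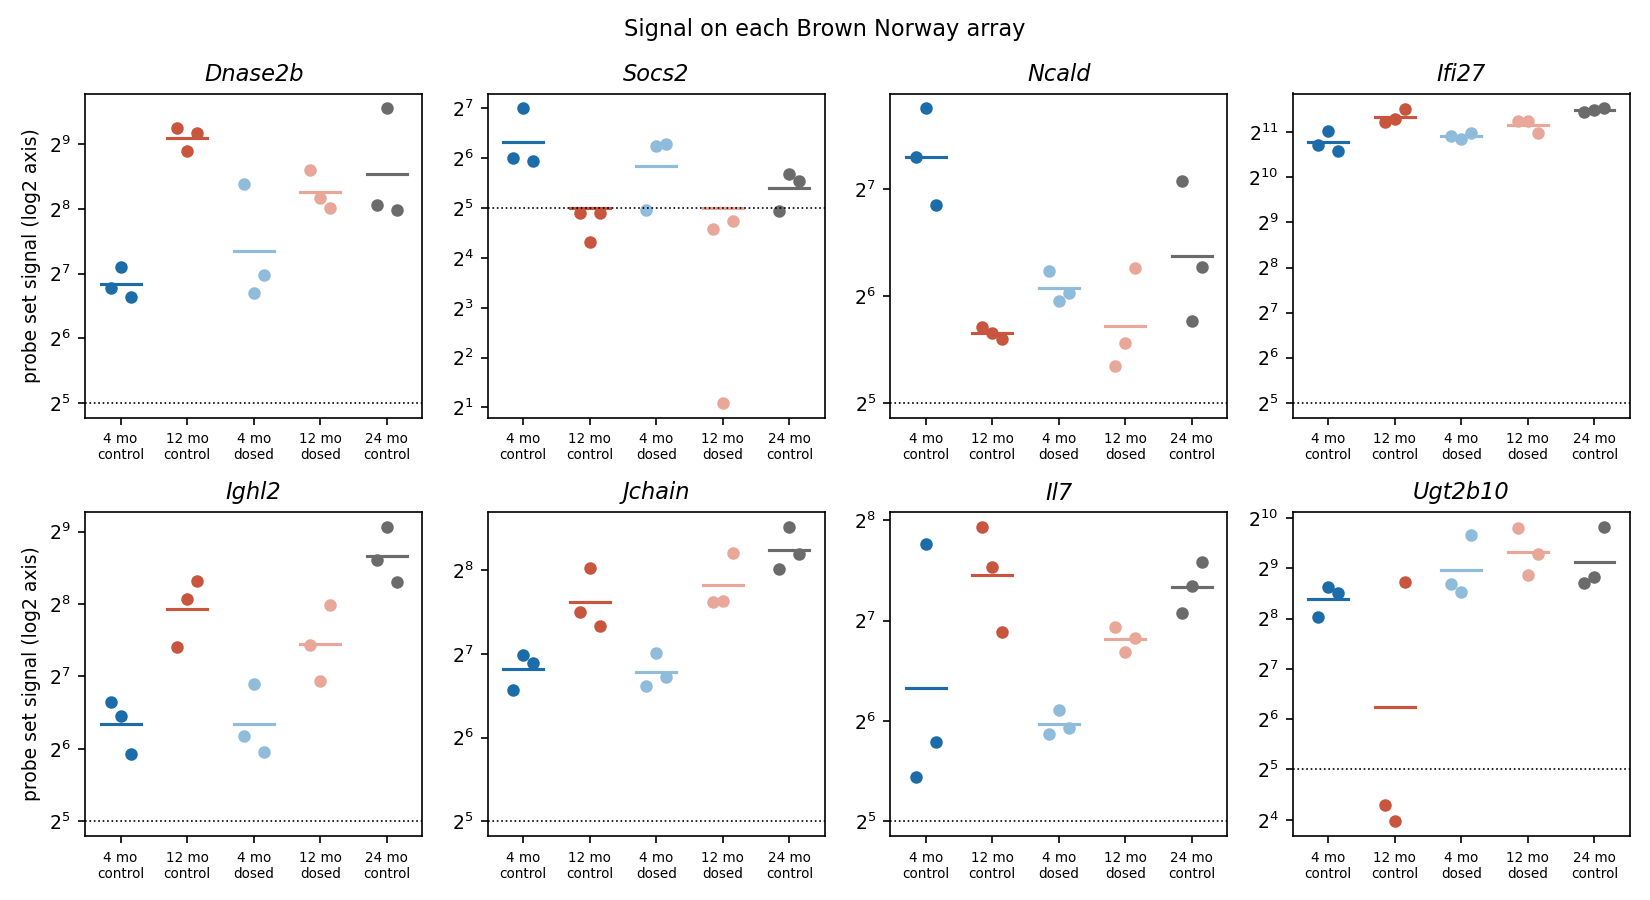
Signals (log2 axis) of 8 genes on 15 Brown Norway arrays, with 1 point a rat, bars at the geometric mean of floored signals and a dotted line at the floor of 32. Dnase2b reads 477 to 608 in the 12-month controls and 100 to 137 in the 4-month controls, and 2 of the 12-month controls are below the floor for Ugt2b10.

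Interferon-responsive genes tended to read higher in the 12-month rats. Interferons are antiviral cytokines whose receptors switch on overlapping sets of target genes, and Ifnar1 is a subunit of the receptor for type I interferons. Of 34 such genes tested, 0 were called, 27 had a log2 fold change above 0 and 6 below, and the median was 0.12, against -0.01 over all genes tested. The 3 rats of 12 months all read above the 3 of 4 months for 6 of the 34, against the 4.16% of all genes, and for none did all read below. Ifi27, an interferon-induced membrane protein and 1 of the 20 genes of smallest p, read 1689, 2083 and 1538 at 4 months and 2398, 2501 and 2909 at 12 months. Its groups did not overlap (log2 fold change 0.56, SE 0.12, limma adjusted p = 0.566). The other 5 were Psmb8, a subunit of the immunoproteasome, Tap1, of the peptide transporter for MHC class I, Usp18, which limits the interferon response, the chemokine Cxcl11 and the antiviral membrane protein Bst2, with log2 fold changes of 0.44, 0.33, 0.28, 0.56 and 0.29. The receptor subunit Ifnar1, also among the 20, read 67.9, 51.3 and 56.4 against 81.3, 85.3 and 75.9, a log2 fold change of 0.47. Without replicate 2 of 4 months, 9 of the 34 lay apart upwards and 0 downwards, against 6.43% and 7.71% of all genes in that setting, and the median was 0.20.

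Interferon acts through a short promoter motif, and the promoters of Ifi27 and Bst2 are printed because both hold a pair of matches and their genes lay apart between the ages. The interferon-stimulated response element was searched as GAAA, any 2 bases and GAAA again, on both strands, in the 250 bases before each RefSeq gene start (GRCr8). It was present in 902 of 27457 promoters (3.29%) and 2 or more times in 55 (0.2%). Of the 29 promoters matched among the 34 genes tested, 18 held it. Of the 6 genes that lay apart, 5 were in the table, and Ifi27, Bst2 and Tap1 held it. Ifi27 (chr6:128355062-128355311, plus strand) has its matches starting 169 and 84 bases before the gene start, and Bst2 (chr16:18254968-18255217, minus strand) has an overlapping pair at 131 and 125 bases. Both are written 5' to 3' with the matches in capitals, and a match describes the letters and is not evidence of binding.
Ifi27: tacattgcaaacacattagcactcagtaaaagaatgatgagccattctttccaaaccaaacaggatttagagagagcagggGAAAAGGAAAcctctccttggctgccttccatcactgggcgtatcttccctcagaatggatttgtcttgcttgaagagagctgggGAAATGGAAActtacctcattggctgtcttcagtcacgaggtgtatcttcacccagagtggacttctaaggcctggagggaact
Bst2: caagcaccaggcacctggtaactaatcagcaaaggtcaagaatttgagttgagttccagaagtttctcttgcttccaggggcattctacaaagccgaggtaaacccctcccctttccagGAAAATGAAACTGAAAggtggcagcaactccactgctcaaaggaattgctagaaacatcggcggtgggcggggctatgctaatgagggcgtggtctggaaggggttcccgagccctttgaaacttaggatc

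Markers of resident immune cells also read higher in the 12-month controls, without a gene passing the test. Of 16 Kupffer cell and macrophage markers tested, 0 were called, 14 had a log2 fold change above 0, and the median was 0.41. For 8 of the 16 the 12-month rats all read above the 4-month rats, against 4.16% of all genes, and none lay apart downwards. C1qb, a chain of the complement protein C1q that macrophages make, read 235, 197 and 189 at 4 months and 383, 329 and 380 at 12 months. The groups did not overlap (log2 fold change 0.82, SE 0.28, limma unadjusted p = 0.00992, adjusted p = 0.962). Clec4f, a lectin of Kupffer cells, read 638, 516 and 530 against 665, 874 and 1109, a log2 fold change of 0.63. The other 6 that lay apart, Tyrobp, Cd68, Lyz2, Fcer1g, C1qc and Laptm5, had log2 fold changes of 0.44 to 0.68. The scavenger receptor Cd163, at 125, 103 and 101 against 132, 117 and 135, overlapped. The 2 markers with a log2 fold change below 0 were Adgre1 and Cd14. Adgre1 read 42.83, 45.28 and 47.82 against 62.55, 35.72 and 24.96, and Cd14 read 1220, 1799 and 1260 against 1158, 1252 and 1558. The 16 markers summed to 4973, 4883 and 4400 at 4 months and 5577, 5496 and 6937 at 12 months, the highest on replicate 3. Leaving out replicate 2 of 4 months kept the count at 8 of 16, against 6.43% of all genes in that setting. The median was then 0.40.

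Genes of antigen presentation by MHC class II, which such cells carry, had a median log2 fold change of 0.37 over 8 tested, with 0 called and 4 apart upwards, against 4.16% of all genes. These were RT1-Da, at 228, 167 and 196 against 287, 237 and 333, RT1-DMa, RT1-DMb and the lysosomal protease Ctss. The invariant chain Cd74 overlapped, at 365, 255 and 247 against 376, 284 and 360. Of 29 actin cytoskeleton genes, 0 were called and 5 lay apart upwards, against the same 4.16%, among them S100a4, at 43.4, 34.8 and 30.3 against 93.7, 59.7 and 53.8.

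Of the 4 B and plasma cell markers tested, 2 were among the 20 genes of smallest p. Jchain, the chain that joins the units of polymeric IgA and IgM, read 94.8, 127 and 118 at 4 months and 181, 261 and 162 at 12 months. Its groups did not overlap (1.75-fold, log2 fold change 0.81, SE 0.22, limma adjusted p = 0.962). Ighl2, placed in the list of B and plasma cell markers, read 99.96, 87.5 and 61.2 against 169, 269 and 318, again without overlap (log2 fold change 1.59, SE 0.36, limma adjusted p = 0.566). The defining B cell markers Ms4a1 and Cd79b were at or below the floor on all 6 arrays, as were 10 of 15 measured T and NK cell markers.

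**Figure D3:**
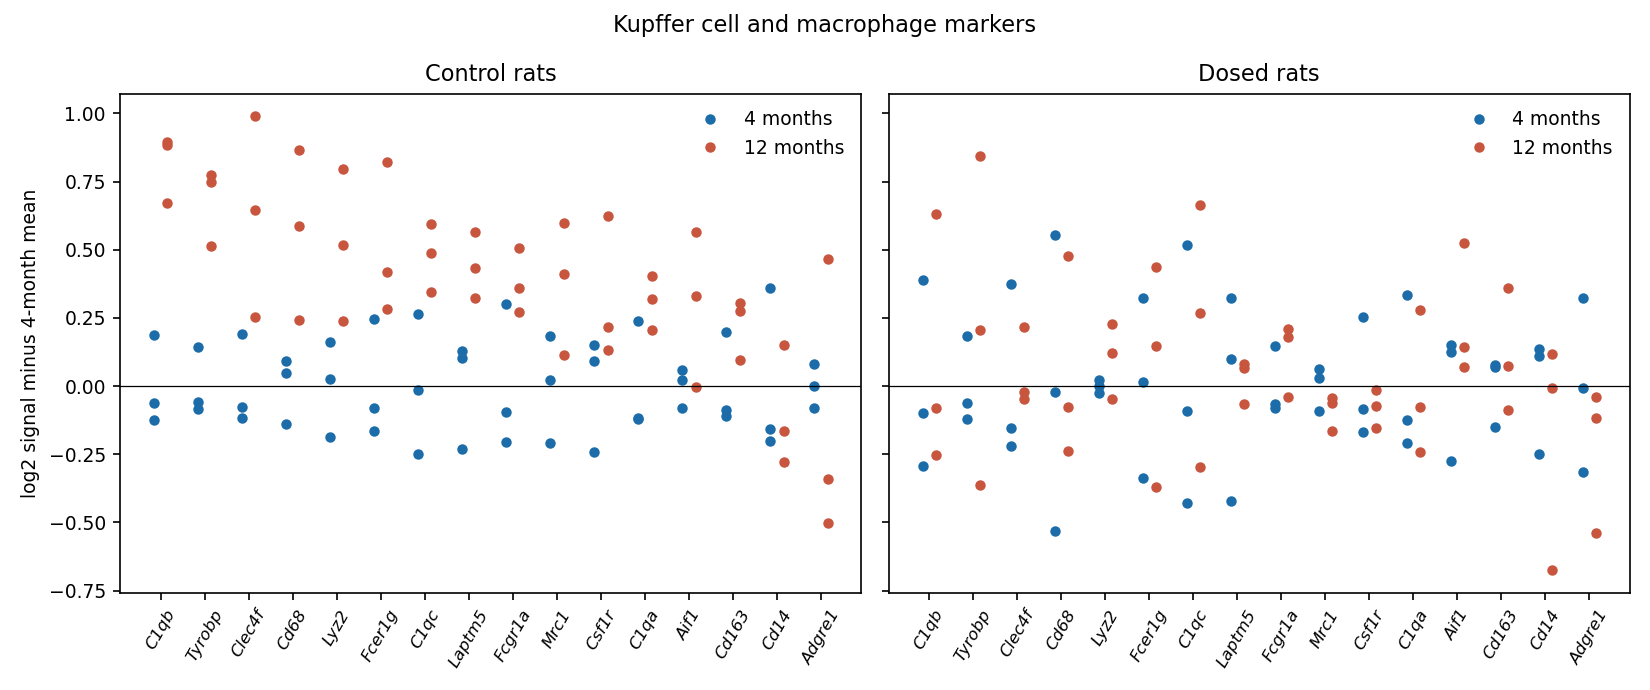
Log2 signal of 16 macrophage markers on each array, relative to the mean of the 4-month rats of the same treatment, in control (left) and toluene-dosed rats (right), with 1 point a rat. In the controls the 12-month points lie wholly above the 4-month points for 8 of the 16 markers, against 4.16% of all genes. In the dosed rats they do so for 0, against 3.02%.

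None of the drug-metabolising enzymes, the subject of the study, passed the test. Cyp2c11, the main male-specific P450, which oxidises steroids, read 5063, 4742 and 4956 at 4 months and 4343, 4963 and 5413 at 12 months. The groups overlapped, and the log2 fold change of -0.01 had a 95% interval of -0.52 to 0.50. The intervals for the male-pattern genes Cyp2c13 (-0.20 to 0.29), Cyp2a2 (-0.59 to 0.32), Cyp3a2 (-0.85 to 0.57) and Hsd3b5 (-0.69 to 0.35), the last a steroid reductase, also lay within 2-fold of no difference. Over the 17 male-dominant genes tested, 0 were called, 1 lay apart upwards and 1 downwards, against 4.16% and 3.27% of all genes, and the median was -0.01. Cyp2c12, the female-specific counterpart, read 35.8, 25.4 and 50.5 at 4 months and 35.1, 35.3 and 35.6 at 12 months, next to the floor at both ages.

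Cyp2e1, which oxidises ethanol and small solvents, read 7109, 6472 and 7004 against 7004, 7394 and 7375, with an interval of -0.11 to 0.27. Cyp1a2, which oxidises aromatic amines, had a log2 fold change of -0.23, and the sulfotransferase Sult1e1 and the glucuronosyltransferase Ugt2b1 had -0.04 and -0.05. Of 41 cytochromes P450 tested, 0 were called, 3 lay apart upwards and 3 downwards, against 4.16% and 3.27% of all genes. The 3 lower were Cyp1a2, Cyp2a2 and Cyp26b1. Cyp26b1, which breaks down retinoic acid, had the smallest p of them, at 102, 105 and 76.5 against 62.0, 48.5 and 69.8 (log2 fold change -0.65, SE 0.27, limma adjusted p = 0.962). The 47 other phase 1 enzymes held 6 apart upwards and 2 downwards, against the same 4.16% and 3.27% of all genes. Fmo1, a flavin monooxygenase, read 1344, 1086 and 1368 against 1435, 2178 and 1799, with a log2 fold change of 0.50, or 0.39 without replicate 2 of 4 months. The 49 conjugating enzymes held 0 apart upwards and 1 downwards, against these same shares. That gene was Gsta3 (glutathione S-transferase), at 581, 457 and 456 against 143, 341 and 217 (log2 fold change -1.17, SE 0.57). Ugt2b10, described above, had the smallest p of this list, with groups that overlapped (log2 fold change -2.15).

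**Figure D4:**
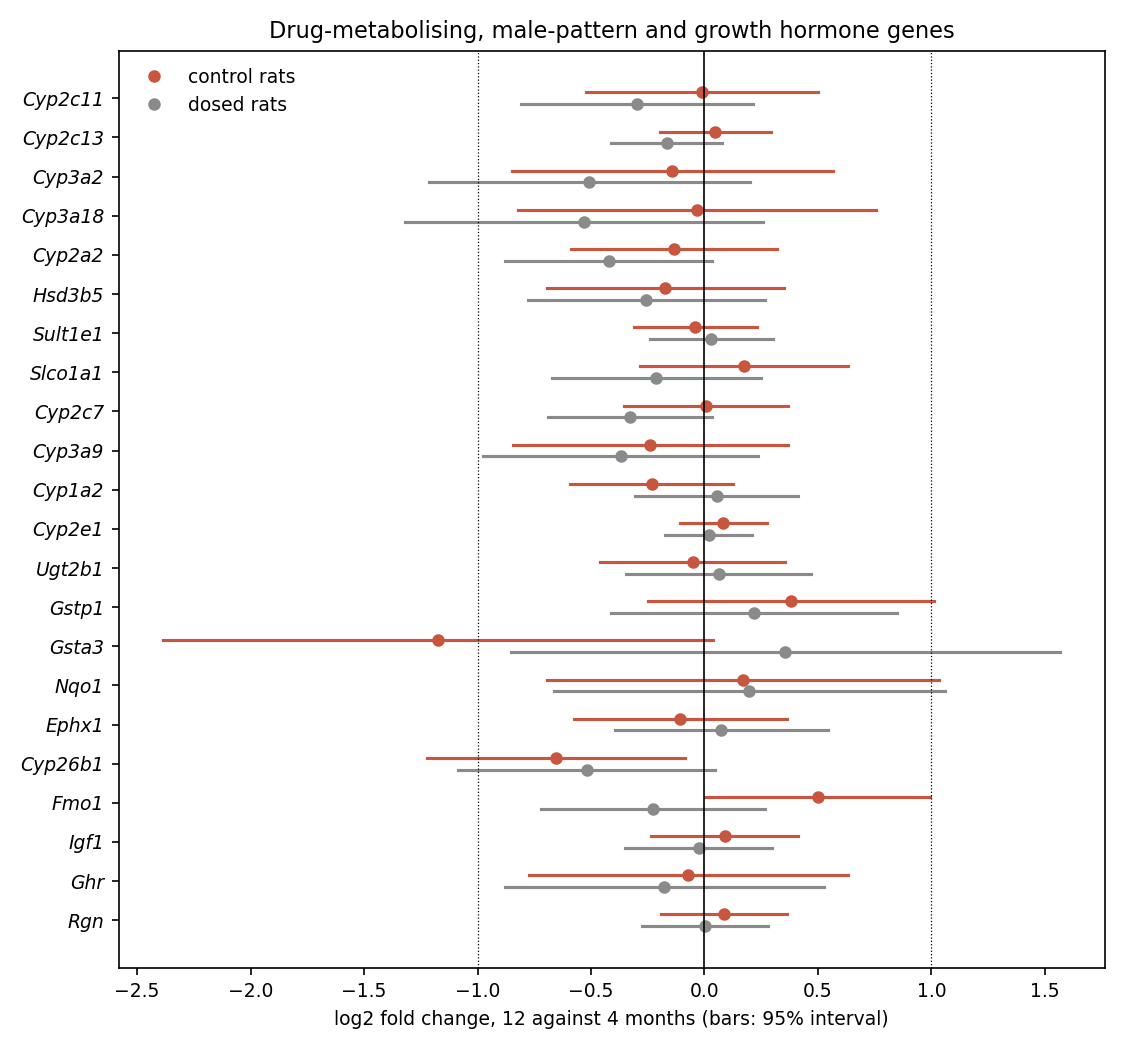
Log2 fold change of 12 against 4 months (points) with its 95% interval (bars) for 22 drug-metabolising, male-pattern and growth hormone genes in control and toluene-dosed rats; dotted lines mark 2-fold. In the controls the points of 18 of the 22 genes lie between -0.24 and 0.18, and Gsta3 has the widest interval, -2.38 to 0.04.

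Igf1, the growth factor through which growth hormone acts on the body, read 4007, 3399 and 3491 at 4 months and 3756, 3841 and 3961 at 12 months (95% interval -0.24 to 0.41). The receptor gene Ghr had a log2 fold change of -0.07, and Rgn, a calcium-binding protein known as a marker of liver ageing, had 0.08. The list of 16 growth hormone and IGF genes had a median of -0.34, which became 0.01 without replicate 2 of 4 months. With all rats Socs2 was the 1 member apart, downwards, against 3.27% of all genes. Without that replicate 2 lay apart upwards and 2 downwards, against 6.43% and 7.71% of all genes.

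The median of the immediate early genes, which switch on within minutes of a stimulus, depended on the same rat. The median of the 16 tested was -0.34 with all rats and 0.29 without that replicate. Without it 6 of the 16 lay apart upwards and 1 downwards, against 6.43% and 7.71% of all genes. In the dosed rats all 16 had a log2 fold change above 0, with a median of 0.43. There 5 lay apart upwards and 0 downwards, against 3.02% and 3.58% of all genes. Egr1, the member of smallest p in the controls, is a transcription factor. It read 253, 144 and 259 at 4 months and 85.7, 37.6 and 50.5 at 12 months. Its groups did not overlap (log2 fold change -1.95, SE 0.84, limma adjusted p = 0.962), and without replicate 2 of 4 months the log2 fold change was -2.23. In the dosed rats the order was opposite, with 93.3, 66.8 and 53.1 at 4 months and 97.9, 141 and 805 at 12 months. The difference between its age effects had an adjusted p of 0.977 in limma (unadjusted p = 0.00761). Dusp1, a phosphatase that ends such signalling, read 260, 238 and 262 against 393, 317 and 448.

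Lists of intermediary metabolism had medians near 0 in the controls. They were 0.06 for fatty acid synthesis (21 genes), 0.14 for cholesterol synthesis (20), 0.05 for amino acid breakdown and the urea cycle (44), 0.00 for fatty acid oxidation (29) and 0.03 for oxidative phosphorylation (29), with 0 called in each. In bile acid synthesis 4 of 15 genes lay apart upwards, against 4.16% of all genes, with a median of 0.13. In the dosed rats the median of this list was -0.09 and 1 of the 15 lay apart upwards, against 3.02% of all genes. The 4 apart in the controls were Cyp8b1, Cyp7b1, Akr1c14 and Scp2. Cyp8b1, the enzyme that makes cholic acid, read 2639, 2577 and 2599 against 3211, 3474 and 3200. Cyp7b1 read 47.9, 66.3 and 66.8 against 109, 98.0 and 150. The 27 collagen and matrix genes had a median of 0.00, and Col3a1, a fibrillar collagen, read 980.5, 732 and 710.5 against 706, 602 and 676. The 20 p53 and senescence genes had a median of 0.08, with the cell cycle inhibitor Cdkn1a at 82.1, 229 and 55.6 against 51.7, 47.4 and 101. The log2 fold change of Cdkn1a was -0.69 with all rats and -0.11 without replicate 2 of 4 months. Mki67 and Top2a, markers of dividing cells, were not above the floor on 3 of the 18 arrays and were not tested.

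**Figure D5:**
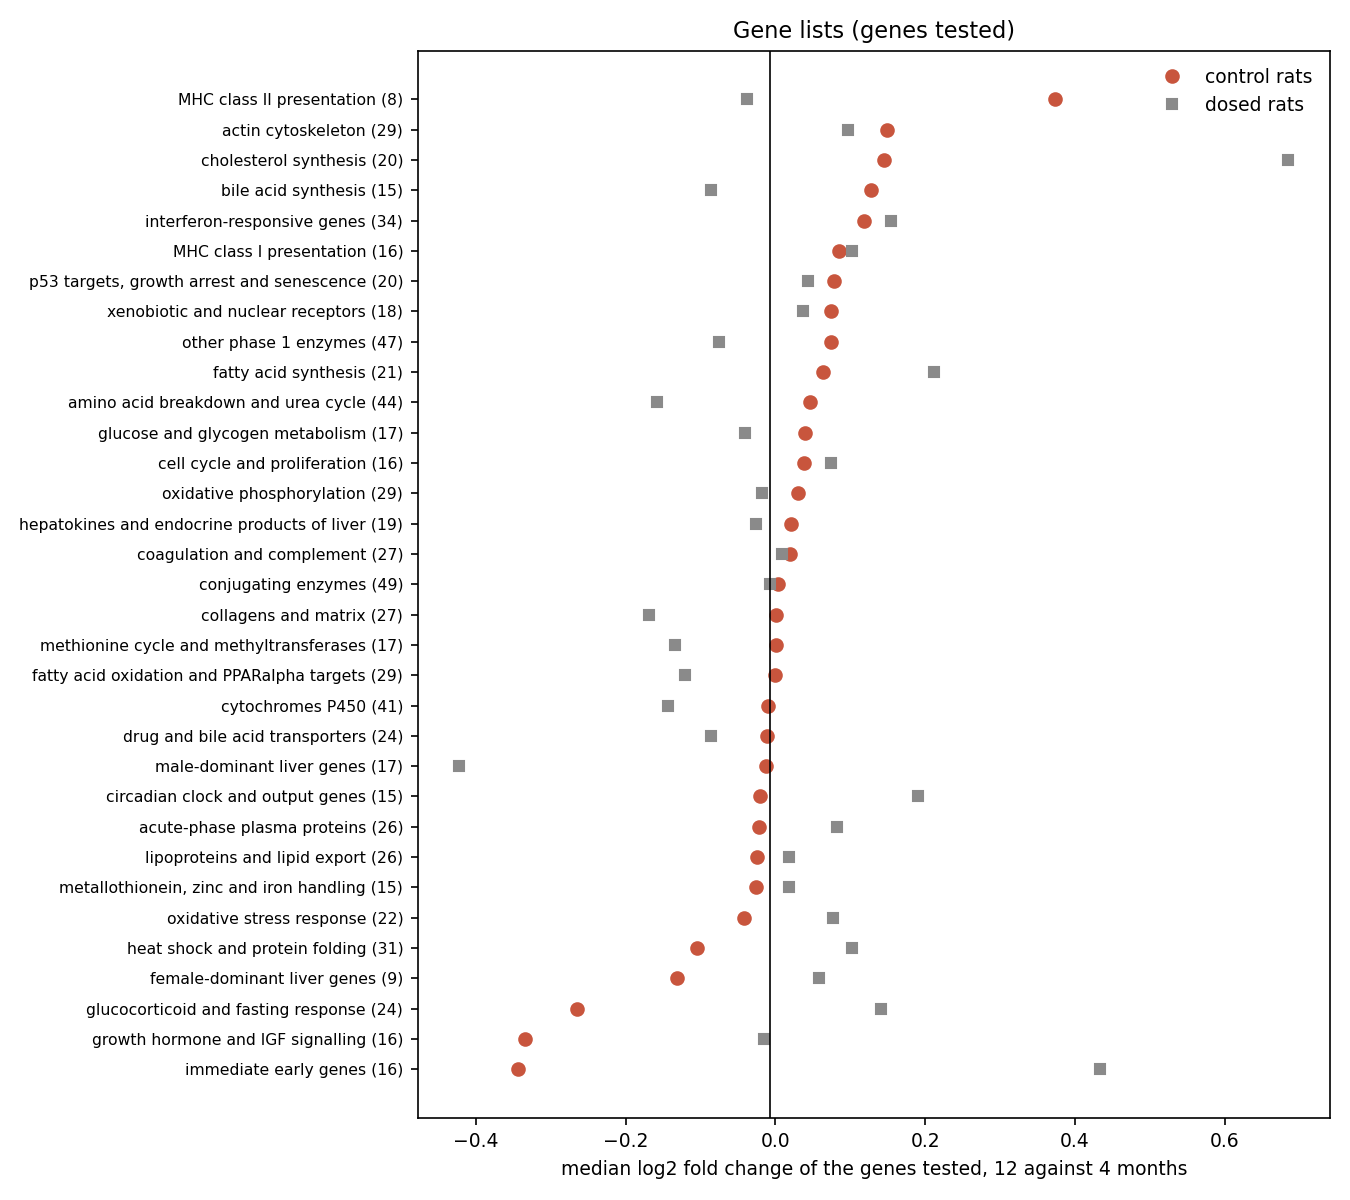
Median log2 fold change of 12 against 4 months for each pathway list, cell type marker lists left out (number of genes tested in brackets) in control and toluene-dosed rats; the line marks the median of all genes in the controls, -0.01. Control medians run from -0.34 for immediate early genes to 0.37 for MHC class II presentation.

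In the dosed rats, the same age contrast also gave 0 called genes of 8586 (0%), with 211 at an unadjusted p under 0.05 (2.46%). The test of whether the age effect differed between dosed and control rats called 0 (0%), with 269 at an unadjusted p under 0.05 (3.13%). The mean of both effects, over 6 against 6 rats, called 0 (0%), with 281 (3.27%). These dosed arrays differ in tissue content: the 7 measured muscle markers, among them Acta1 and Ckm, summed to 14016 on replicate 1 of the 4-month dosed rats and 2049 on replicate 2 of the 12-month dosed rats, against 70.5 to 130 on the 6 control arrays. Of the 20 control genes of smallest p, 15 had the same direction in the dosed rats (75%), against 48.1% of all genes, and the count was 15 also without the array richest in muscle markers. The differences were smaller there, with a median in the control direction of 0.20, against 0.64 in the controls in which the genes were chosen. For 9 of the 20 the difference between the age effects had an unadjusted p under 0.05 in limma, against 3.13% of all genes. The 20 were chosen by the control values that enter this difference. Among them, the dosed log2 fold change was -0.35 for Ncald, -0.10 for LOC100909739, 0.01 for Utp6 and 0.19 for Parn. Of the 334 genes with an unadjusted p under 0.05, 173 kept their direction (51.8%).

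Genes of antibody-making cells and some interferon targets also lay apart in the dosed rats. Jchain read 98.1, 128.3 and 106 at 4 months and 197, 198 and 294 at 12 months after dosing, a log2 fold change of 1.04, and Ighl2 read 72.4, 119 and 62.4 against 173, 122 and 254, or 1.11. Over both effects the mean was 0.92 for Jchain (limma adjusted p = 0.133) and 1.35 for Ighl2 (adjusted p = 0.147). Tstd1 read 336, 381 and 281 against 530, 541 and 491, and Unc5cl read 54.1, 70.1 and 54.7 against 76.7, 125 and 108, both again without overlap. Of the 34 interferon-responsive genes, 11 lay apart upwards in the dosed rats and 0 downwards, against 3.02% and 3.58% of all genes. Ifi27 and Psmb8 lay apart upwards in both treatments, and the share of all genes that did so was not counted. Psmb8 read 219, 246 and 217 against 359, 454 and 258 after dosing, and the ubiquitin-like Isg15 read 37.9, 53.9 and 46.3 against 60.6, 67.2 and 56.0.

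The macrophage markers overlapped between the ages in the dosed rats. Of the 16, 0 lay apart upwards in the dosed rats, against 3.02% of all genes, and the median was 0.06. The sums were 4537 to 5703 at 4 months and 4747 to 5120 at 12 months. The 8 MHC class II genes had a median of -0.04 in the dosed rats, with 3 above 0, 5 below and 1 apart upwards. Of the 29 actin cytoskeleton genes, 0 lay apart upwards. The share of all genes was the same 3.02% for both. C1qb read 266, 373 and 233 against 239, 270 and 441 there, and the difference between its age effects was not called (-0.72, limma unadjusted p = 0.0873). Dnase2b read 333, 104 and 127 at 4 months and 388, 288 and 258 at 12 months after dosing, with overlap through the 4-month rat whose array held the muscle markers. Without that array the mean of both effects met the threshold for Dnase2b (1.84, limma adjusted p = 0.0263) and Socs2 (-1.29, adjusted p = 0.0178), against adjusted p of 0.147 and 0.171 with it. That array read 31.3 for Socs2, against 75.7 and 78.1 in its group, so leaving it out widened both differences. Replicate 2 of the 12-month dosed rats, which also held muscle markers, was kept in that fit. Cholesterol synthesis genes had a median of 0.69 in the dosed rats, all 20 above 0, with 0 of 20 apart upwards, against 3.02% of all genes. Sqle, an enzyme of this pathway, read 38.6, 29.2 and 48.1 at 4 months and 35.3, 74.7 and 329 at 12 months. The highest value was on replicate 3 of 12 months. That array lay 2-fold from its group mates for 315 genes, against 164 and 145 on replicates 1 and 2. The lists were not recounted without it. Male-dominant genes had a median of -0.42 there, where replicate 3 of 12 months read 2804 for Cyp2c11 against 5301 and 5106 in its group.

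The controls of 24 months share no rats with those of 4 and 12 months, and their signals are given beside them without a test. Ifi27 read 2780, 2886 and 2962, Jchain 258, 366 and 292 and Ighl2 391, 536 and 317, each higher on average than at 12 months, with overlap. Dnase2b read 269, 755 and 254, above the 4-month rats in all 3. Ncald, at 135, 54.3 and 77.2, and Socs2, at 30.6, 51.6 and 46.5, stood on average between the other ages, and Tstd1, at 302, 410 and 383, overlapped the 4-month rats. C1qb read 910, 522 and 510, above all 6 younger controls. The dosed rats of 24 months read 189, 189 and 134 for Jchain, below all dosed rats of 12 months. They read 117, 271 and 233 for Ighl2, 258, 436 and 247 for C1qb and 3577, 3583 and 4025 for Ifi27.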

How the data were processed

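RNA from single livers was measured on Affymetrix Rat 230 2.0 arrays, and the authors deposited 1 linear signal intensity per probe set and array. The submitters' processing notes name MAS5 and RMA, and which of them made the values is not given in the sources used here. The table has no scan dates or detection calls. Of 24946 probe sets, 23324 had Brown Norway values and 17584 had 1 gene symbol, 393 several and 6916 none, by GEO's platform annotation with symbols updated through Entrez ID.

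Signals were floored at 32 and put on the log2 scale. Each gene was represented by its probe set of highest mean, and of 11984 genes the 8586 above the floor on at least 3 of the 18 Brown Norway arrays were tested. The fit (limma 3.58.1, R 4.3.3) gave each of the 6 groups its own mean and had 12 residual degrees of freedom, and p-values were adjusted over all genes by Benjamini-Hochberg (threshold 0.05). Fold changes are on the floored scale, and the number of arrays limits the precision. Each array is a separate rat by the labels' animal numbers. The script was tested on simulated data.

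Named genes were the 20 of smallest p, the member of smallest p in each list described, and a fixed set of drug metabolism, growth hormone and immune genes. Others (the inflammation and stress genes, further macrophage, MHC, interferon, bile acid and actin genes, Il7 and Dusp1) were named after their values were seen. The comparison, lists and genes were chosen with earlier results of these data known. Lists are described by counts and medians, with no set test.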

Additional observations from a re-analysis of the deposited data

How the results depend on the processing

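The control comparison called 0 genes in limma in the reported fit and in most other settings. It called 1 with no filter on dim genes (LOC100909739, lower) and 5 with array quality weights, 3 higher (Tmem150c, Dnase2b and Ifi27) and 2 lower (LOC100909739 and Ncald). Leaving out each control rat in turn gave 0 to 2 calls (0 to 1 higher, 0 to 1 lower): 2 without replicate 2 of 4 months (Il7 and LOC100909739) and 1 without replicate 3 of 12 months (Ugt2b10). The test of the difference between dosed and control rats gave 0 to 1 on leaving out a rat (Ugt2b10, 3.75, adjusted p = 0.0203), and the dosed contrast gave 0 throughout. The mean of both effects gave 4 calls with each probe set on its own, 1 with a floor of 8 (Gria3), 14 with array quality weights and 0 to 2 on leaving out a rat. For most of these the cause was not tested; leaving out a rat changes the samples. With the Gapdh ratio as a covariate the control comparison gave 0 calls and 310 genes at an unadjusted p under 0.05, and with the 9 control arrays alone 0 and 243. The 20 genes of smallest p kept their sign in all 341 values from other settings, and the other 124 named genes had a different sign in 77 of 2178. Ncald ranged from -1.87 to -0.35 and Tmem150c from 0.09 to 1.28. No paired analysis was possible because the labels give animal numbers and no replicate numbers shared between groups. Genes near the floor have compressed fold changes.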

Other observations

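Probe sets that the platform table pairs with no gene had the lowest adjusted p for age when both treatments were averaged, and they were singled out after their values were seen. Tested one by one in limma, 4 probe sets met the threshold in the mean of the control and dosed effects, and all 4 were unnamed. Probe set 1387902_a_at read 1424, 1320 and 1133 in the 4-month controls and 2211, 3463 and 4396 in the 12-month controls, a mean log2 fold change of 1.30 (SE 0.16, adjusted p = 0.00322). Probe set 1393285_at read 27.9, 86.5 and 49.5 against 204, 204 and 170, with a mean of 1.79 (SE 0.20, adjusted p = 0.00292). The other two were 1374334_at, at 1.15 (adjusted p = 0.00883), and 1392025_x_at, at 0.85 (adjusted p = 0.018). In the controls taken alone their log2 fold changes were 1.33, 1.90, 1.04 and 0.80, and the dosed rats had 1.27, 1.69, 1.27 and 0.89.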
